A study of Mus musculus with 12 samples.

Results

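The T cell receptor (TCR) reads antigen through a set of chains, kinases and adaptors, and the levels of 10 of their genes were measured in splenic CD8 T cells after 6 hours in culture. The genes were taken from the count table by symbol, as parts of this complex, but with earlier results of these data known. They were Cd3d, Cd3e, Cd3g and Cd247, which encode the CD3δ, CD3ε, CD3γ and CD3ζ chains, Cd8a and Cd8b1, which encode the co-receptor, Cd28, Lck, Zap70 and Lat. These are 10 of the 20778 genes in the table, and all 10 passed the filter on low counts, as did 12122 genes in all. The cells came from the spleens of C57BL/6 mice and were enriched with magnetic beads (MojoSort). There were 3 mRNA libraries in each of 4 groups, namely untreated cells (Naïve) and cells given an antibody to CD3 (αCD3, 1 µg/ml), interferon gamma (IFNγ, 70 ng/ml) or lipopolysaccharide (LPS, 1 µg/ml). The labels state the αCD3 and LPS doses also in mg/ml, so the unit is uncertain. They give an age of 6 weeks, whereas the methods of the study state older animals, so the age is uncertain as well. Nothing ties a library to its own mouse or culture, so the p-values measure the spread between these libraries, which may be technical. The comparison placed the response to IFNγ beside those to a TCR stimulus and to a microbial product.

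By way of background, the αβ chains of the TCR bind peptide and MHC but carry no signalling tail. Signalling passes through the CD3 chains, whose tyrosine motifs are phosphorylated by the kinase LCK, which the co-receptor CD8 brings to the complex. The kinase ZAP70 docks on the phosphorylated chains and in turn phosphorylates the adaptor LAT, from which calcium, Ras and NF-κB signalling branch out. CD28 is the receptor for the ligands CD80 and CD86 and gives the costimulatory signal. The antibody to CD3 engages this complex directly. IFNγ signals through its own receptor, and LPS is sensed by Toll-like receptor 4.

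The libraries held 10196248 to 27610175 counts, and the members had between 466 and 10619 counts in a library. Levels are given as CPM (counts relative to a common library size) on library sizes scaled by the trimmed mean of M values (TMM), as mean ± SD over 3 libraries. T cell genes were present in all libraries, but so were genes of other cells. The summed level of 5 T cell markers (Cd2, Cd5, Thy1, Tcf7 and Bcl11b) was 963 to 1749 CPM, and that of 10 B cell markers was 5399 to 9132 CPM. The T cell genes Trac, Trbc1 and Trbc2 are not in the count table, so the 2 sums do not give the shares of the cells. Tcf7 made up 935 ± 127 of the 1506 ± 168 CPM of the T cell sum in Naïve libraries. Cd74, which other antigen-presenting cells also express, made up 5396 ± 300.0 CPM of the B cell sum in Naïve libraries. The 9 B cell markers without Cd74 summed to 3094 to 3393 CPM in Naïve, 2239 to 2524 CPM in αCD3, 2775 to 2876 CPM in IFNγ and 1827 to 2380 CPM in LPS libraries. The B cell receptor chain gene Cd79a was at 903 ± 67.7 CPM and the B cell surface gene Ms4a1 (CD20) at 502 ± 87.9 CPM in Naïve libraries. Cd4, which marks the other main T cell lineage, was at 37.0 ± 3.05 CPM. The libraries labelled CD8 T cells thus held T cell and CD8 transcripts and, beside them, B cell transcripts at high levels. Other marker sums were 355 to 957 CPM for 12 myeloid genes, 336 to 4114 CPM for 5 erythroid genes, 104 to 342 CPM for 6 NK cell genes, 66.9 to 121.8 CPM for 4 CD4 T cell genes, 48.0 to 117.9 CPM for 6 dendritic cell genes, 8.11 to 25.5 CPM for 4 platelet genes and 0.241 to 1.49 CPM for the γδ T cell gene Sox13. No marker in the table was at 0 in every library. In the library numbered 1 of each group the erythroid and myeloid sums were lowest and the T cell marker sum was highest. Not every T cell marker followed that sum. Tcf7 and Cd5 were highest in library 1 of every group, but Cd2 (206 CPM) and Thy1 (225 CPM) were lowest there among αCD3 libraries.

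**Figure D1:**
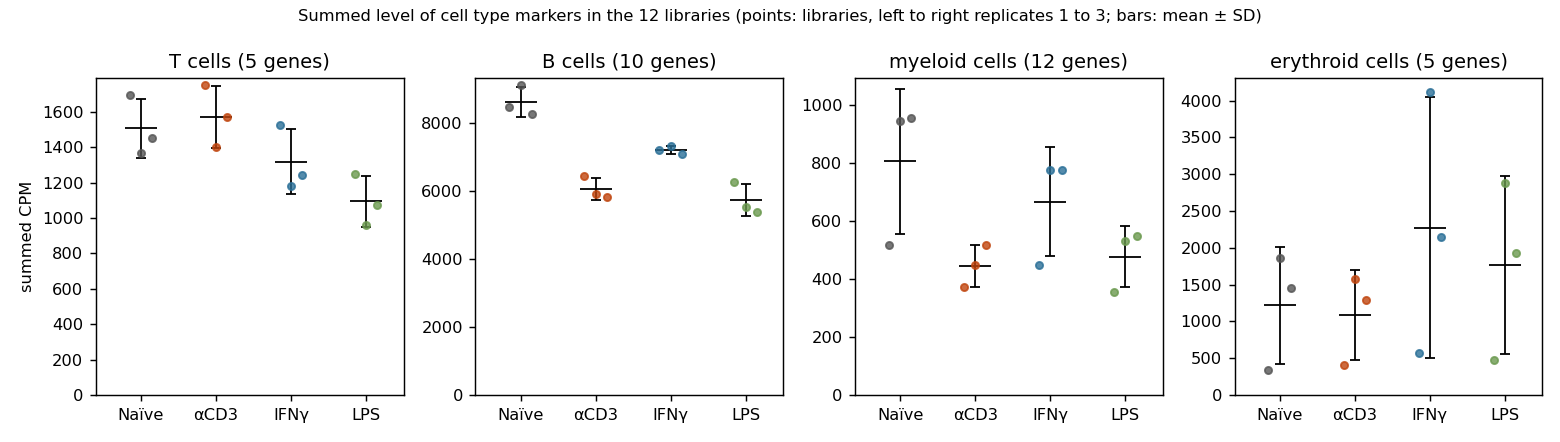
Summed CPM of the T cell (5 genes), B cell (10 genes), myeloid (12 genes) and erythroid (5 genes) markers on the y axis of each panel, by group on the x axis, with 1 point a library and the mean ± SD in black. T cell markers were at 1370 to 1694 CPM in Naïve and 963 to 1249 CPM in LPS libraries, and B cell markers, Cd74 included, at 8272 to 9132 CPM in Naïve and 5399 to 6284 CPM in LPS libraries.

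The genes of the complex were first ranked by level per kilobase of exon, since only values per length can be compared between genes. In Naïve libraries Cd8b1 ranked first with 213 ± 6.91 CPM per kb. Lck followed with 96.2 ± 14.2 CPM per kb, apart from Cd8b1 and from the genes below it in all 3 libraries. Cd8a (64.4 ± 8.89) and Cd3d (62.9 ± 1.13) came next, and their ranges overlapped. Cd3g (46.4 ± 2.92), Lat (43.2 ± 4.72) and Cd247 (40.7 ± 1.28 CPM per kb) formed a middle group in which neighbours overlapped. Cd3e (31.3 ± 1.41), Zap70 (27.2 ± 1.37) and Cd28 (10.7 ± 2.33 CPM per kb) were the lowest, each apart from the next. The order in IFNγ libraries differed from that in Naïve libraries only in that Cd247 (46.3 ± 3.46 CPM per kb) stood above Cd3g (43.3 ± 3.60) and Lat (35.3 ± 7.23), and these neighbours overlapped. In LPS libraries the order was that of IFNγ libraries, and Cd28 was again lowest with 8.01 ± 2.37 CPM per kb. In αCD3 libraries Zap70 stood at rank 4 with 75.8 ± 3.98 CPM per kb, against rank 9 in Naïve libraries, and Cd28 at 37.2 ± 0.420 CPM per kb was above Cd247 at 32.0 ± 1.47, which was then lowest. That last order depends on the length used. By the longest transcript, Cd28 was lowest in all groups, with 52.4 CPM per kb in αCD3 libraries against 57.6 for Cd247.

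**Figure D2:**
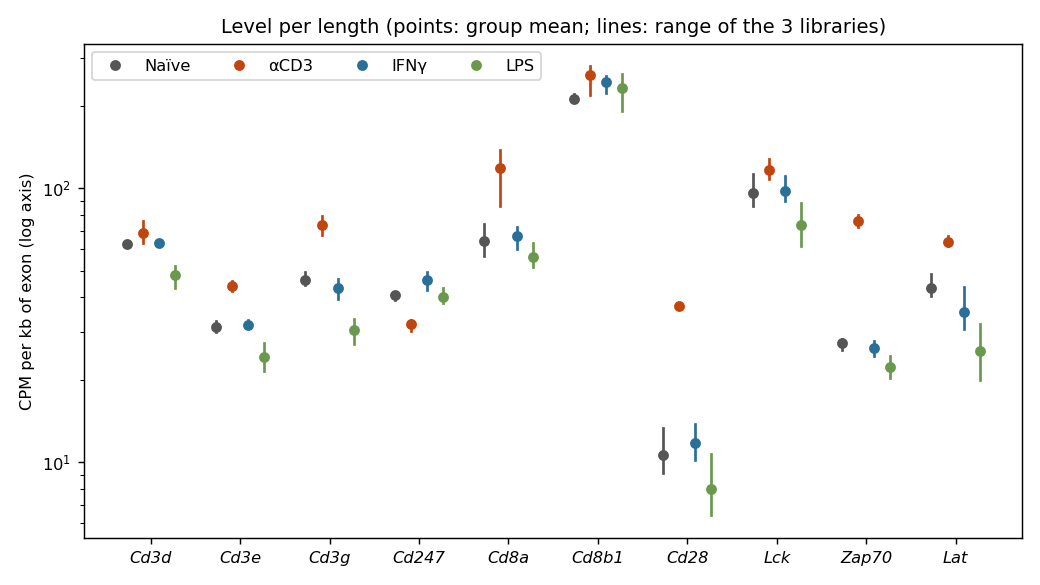
CPM per kb of exon on a log y axis for the 10 genes on the x axis, with the mean of each group as a point and the range of its 3 libraries as a line. Cd8b1 was highest in every group, and Zap70 and Cd28 in αCD3 libraries stood above all libraries of the other groups.

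Several members are neighbours in the genome (GENCODE M21, build GRCm38). Cd3g (chr9:44969572-44980431, minus strand) and Cd3d (chr9:44981786-44987339, plus strand) point away from each other with starts 1355 bp apart, and Cd3e (chr9:44998740-45009627, minus strand) lies 11400 bp beyond Cd3d. Cd8b1 (chr6:71322788-71337494) and Cd8a (chr6:71373427-71379173) lie on the plus strand 35932 bp apart. Zap70 (chr1:36761798-36782818), Cd28 (chr1:60716800-60773359) and Cd247 (chr1:165788681-165877277) are on the plus strand of chromosome 1, Lck (chr4:129548344-129573641) and Lat (chr7:126363824-126369570) on minus strands. Cd247 overlaps Pou2f1, a gene of a POU transcription factor on the opposite strand, and 42.31% of the 31-base words in its exons were found in no other gene. The share was 91.6% to 100% for the other members. The counting is not stated to use strand, so reads in the shared stretches of Cd247 and Pou2f1 cannot be told apart.

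RefSeq promoter windows of 300 bases (250 before and 50 after a start, GRCm38.p6) were found for 8 of the 10 members, in 11 windows, and none for Cd28 and Cd8b1. They were searched on both strands for short motifs of factor families active in T cells. The ETS core AGGAAG was in 8 of the 11 windows and in 35.35% of all 32851 promoter windows of the same length. The RUNX core TGTGGT was in 3 of 11 windows and in 16.76% of all, the E-box CANNTG in 11 of 11 and in 72.31%, and the AP-1 motif TGANTCA in 0 of 11 and in 7.808%. Each motif was counted on its own, also where matches of 2 motifs overlapped. A match is a description of the letters only. The 250 bases before the start are shown for 4 genes with different responses, with matches to AGGAAG or its reverse complement CTTCCT in capitals. They are Zap70, Cd3e and Cd3g, which were higher with αCD3, and Cd247, which was lower. Zap70 has 3 windows, of which only the first is shown.
Zap70, chr1:36761548-36761797, plus strand: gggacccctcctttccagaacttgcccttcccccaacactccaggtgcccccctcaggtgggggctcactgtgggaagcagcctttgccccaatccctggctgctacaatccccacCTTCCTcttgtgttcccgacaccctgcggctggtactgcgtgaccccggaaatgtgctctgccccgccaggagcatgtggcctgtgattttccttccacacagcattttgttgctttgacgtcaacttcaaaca
Cd3e, chr9:45009612-45009861, minus strand: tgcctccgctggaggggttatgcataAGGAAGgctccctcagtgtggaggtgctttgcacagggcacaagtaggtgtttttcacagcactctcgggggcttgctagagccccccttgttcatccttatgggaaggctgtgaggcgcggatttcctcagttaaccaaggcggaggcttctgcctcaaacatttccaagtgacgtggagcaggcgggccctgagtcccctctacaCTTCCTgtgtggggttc
Cd3g, chr9:44980432-44980681, minus strand: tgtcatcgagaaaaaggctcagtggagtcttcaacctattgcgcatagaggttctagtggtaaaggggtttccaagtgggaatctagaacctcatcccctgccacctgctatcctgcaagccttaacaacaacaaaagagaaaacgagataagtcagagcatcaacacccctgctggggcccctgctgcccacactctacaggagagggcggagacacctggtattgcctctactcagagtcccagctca
Cd247, chr1:165788431-165788680, plus strand: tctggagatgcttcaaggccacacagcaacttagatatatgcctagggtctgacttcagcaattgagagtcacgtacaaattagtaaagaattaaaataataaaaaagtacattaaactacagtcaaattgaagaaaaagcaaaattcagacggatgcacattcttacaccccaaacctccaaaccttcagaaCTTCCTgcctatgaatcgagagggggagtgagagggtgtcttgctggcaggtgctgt
Cd3e had 2 such matches, Zap70 and Cd247 had 1 each, and Cd3g had 0 in the stretch shown. The RUNX core was in none of these 4 stretches. The second Zap70 window, not shown, had 2 ETS matches and 1 RUNX match, and the third had 0 of either.

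The antibody to CD3 changed 7 of the 10 members against Naïve cells, raising Cd28, Zap70, Cd8a, Cd3g, Lat and Cd3e and lowering Cd247. A gene is referred to as called where its adjusted p was under 0.05 (edgeR quasi-likelihood test, Benjamini-Hochberg over the 12122 genes). The 6 members called higher stand beside 22.9% of all tested genes called higher, and the 1 called lower beside 15.7%. Unscaled library sizes gave 2095 genes called higher and 2667 lower, against 2775 and 1906. The median log2 fold change was 0.53 over the members and -0.02 over all tested genes. In a fit with the replicate number as a block, 9 members were called, 8 higher and 1 lower, where 52.4% of all genes were called.

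Among the CD3 chains, Cd3g was at 163, 147 and 145 CPM in the Naïve libraries and at 259, 221 and 242 CPM in the αCD3 libraries. All αCD3 libraries were above all Naïve libraries, with a log2 fold change of 0.67 ± 0.10 (SE, adjusted p = 0.000352). Cd3e, whose product carries the site that antibodies to CD3 commonly bind, was at 133, 122 and 128 CPM in Naïve and 179, 172 and 187 CPM in αCD3 libraries. Its groups did not overlap either, and the log2 fold change was 0.49 ± 0.08 (adjusted p = 0.00108). Cd3d was at 113, 113 and 117 CPM in Naïve and 138, 115 and 120.1 CPM in αCD3 libraries. The ranges of Cd3d overlapped and it was not called (0.13 ± 0.08, adjusted p = 0.244).

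Cd247, which encodes the ζ chain with the most signalling motifs of the complex, moved the other way. It was at 220.4, 209 and 221 CPM in Naïve and 174, 161 and 176 CPM in αCD3 libraries. Each αCD3 library was below each Naïve library, and the log2 fold change was -0.35 ± 0.08 (adjusted p = 0.00443). Pou2f1, with which Cd247 shares exon sequence, was at 86.0 ± 12.8 CPM in Naïve and 66.7 ± 9.40 CPM in αCD3 libraries, a log2 fold change of -0.36 ± 0.19 that was not called (adjusted p = 0.162). Pou2f1 was called lower with the replicate block (-0.37 ± 0.07, adjusted p = 0.00124), a change of about the size of that of Cd247. In the same fit Pou2f1 was also lower with IFNγ (-0.25 ± 0.07, adjusted p = 0.0219) and LPS (-0.80 ± 0.07, adjusted p = 5.31e-06), groups in which Cd247 was not called lower in that fit. Its part in the counts of Cd247 was not tested.

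Of the 2 co-receptor genes Cd8a was called and Cd8b1 was not, and the difference between them was not tested. Cd8a was at 206, 227 and 269.6 CPM in Naïve libraries and at 313, 504 and 479 CPM in αCD3 libraries. The lowest αCD3 library, numbered 1 and the most deeply sequenced, was still above all Naïve libraries, and Cd8a rose by 0.88 ± 0.17 on the log2 scale (adjusted p = 0.00245). Cd8b1 was at 327, 307 and 312 CPM in Naïve and 325, 414 and 413 CPM in αCD3 libraries. Library 1 was within the Naïve range, the other two were above it, and Cd8b1 was not called (0.28 ± 0.12, adjusted p = 0.0927). With the replicate block it was called higher (0.27 ± 0.09, adjusted p = 0.0271). It was called as well without αCD3 library 1 (0.39, adjusted p = 0.0239) and without all libraries numbered 1 (0.43, adjusted p = 0.000114).

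Cd28 had the largest fold change of the 10 genes with αCD3. It was at 81.6, 55.8 and 58.2 CPM in Naïve and 227, 230.4 and 225 CPM in αCD3 libraries. The αCD3 libraries were close together and far above the rest, and the log2 fold change was 1.80 ± 0.20 (adjusted p = 9.45e-05), a 3.49-fold rise.

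Of the kinases, Zap70 was at 83.1, 76.9 and 84.6 CPM in Naïve and 240.0, 217 and 223 CPM in αCD3 libraries. It rose 2.78-fold, with a log2 fold change of 1.48 ± 0.08 (adjusted p = 4.69e-06) and no overlap between groups. Lck, which acts one step earlier, was at 329, 252 and 264 CPM in Naïve and 374, 317 and 330.2 CPM in αCD3 libraries. In both groups library 1 was the highest, the groups overlapped, and Lck was not called (0.27 ± 0.15, adjusted p = 0.165). With the replicate block, which sets each library against that of the same number, Lck was called higher at the same size (0.28 ± 0.05, adjusted p = 0.00145), as it was without the libraries numbered 1 (0.33, adjusted p = 0.00335). The adaptor gene Lat was at 135, 112 and 112 CPM in Naïve and 185, 176 and 170.0 CPM in αCD3 libraries. All αCD3 libraries were above the Naïve ones, and the log2 fold change was 0.57 ± 0.17 (adjusted p = 0.0239). Lat was not called with library size alone (0.46, adjusted p = 0.0779), nor without Naïve library 2 or 3 or αCD3 library 1 or 2.

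In these bulk samples a change in the number of cells of a type and a change in RNA per cell cannot be told apart. With αCD3 the summed T cell markers were at 1401 to 1749 CPM against 1370 to 1694 CPM in Naïve libraries, and 2 of the 5 were called higher and 1 lower. The B cell markers were at 5845 to 6454 against 8272 to 9132 CPM, with 6 of 10 called lower and 0 higher. The NK cell genes were at 243 to 342 against 122 to 130.1 CPM, with 2 of 6 called higher, and Nkg7 (31.8 ± 4.98 to 109 ± 26.1 CPM) and Eomes (63.7 ± 12.7 to 156 ± 16.3 CPM), which activated CD8 T cells also express, carried the rise. The defining NK cell genes were low in both groups, with Ncr1 at 1.95 ± 1.09 and 1.84 ± 1.06, Klrb1c at 5.30 ± 2.62 and 3.03 ± 1.25 and Klra8 at 3.08 ± 1.49 and 2.53 ± 1.00 CPM. The myeloid genes were at 372 to 517 against 516 to 957 CPM, with 5 of 12 called lower. The part of these cells in the changes of the members was not tested. When counts were scaled to the 5 T cell markers in place of the library, the same 7 genes were called in the same directions, with Cd28 at 1.76 ± 0.14, Zap70 at 1.41 ± 0.14 and Cd247 at -0.41 ± 0.14. That scaling was added after the values were seen, and one of its markers, Cd5, was itself higher with αCD3. It follows the marker sum, most of which was Tcf7, with mean levels of 935 of 1506 CPM in Naïve and 897 of 1573 CPM in αCD3 libraries. The share of all genes called on this scale was not counted, here or in the comparisons below.

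**Figure D3:**
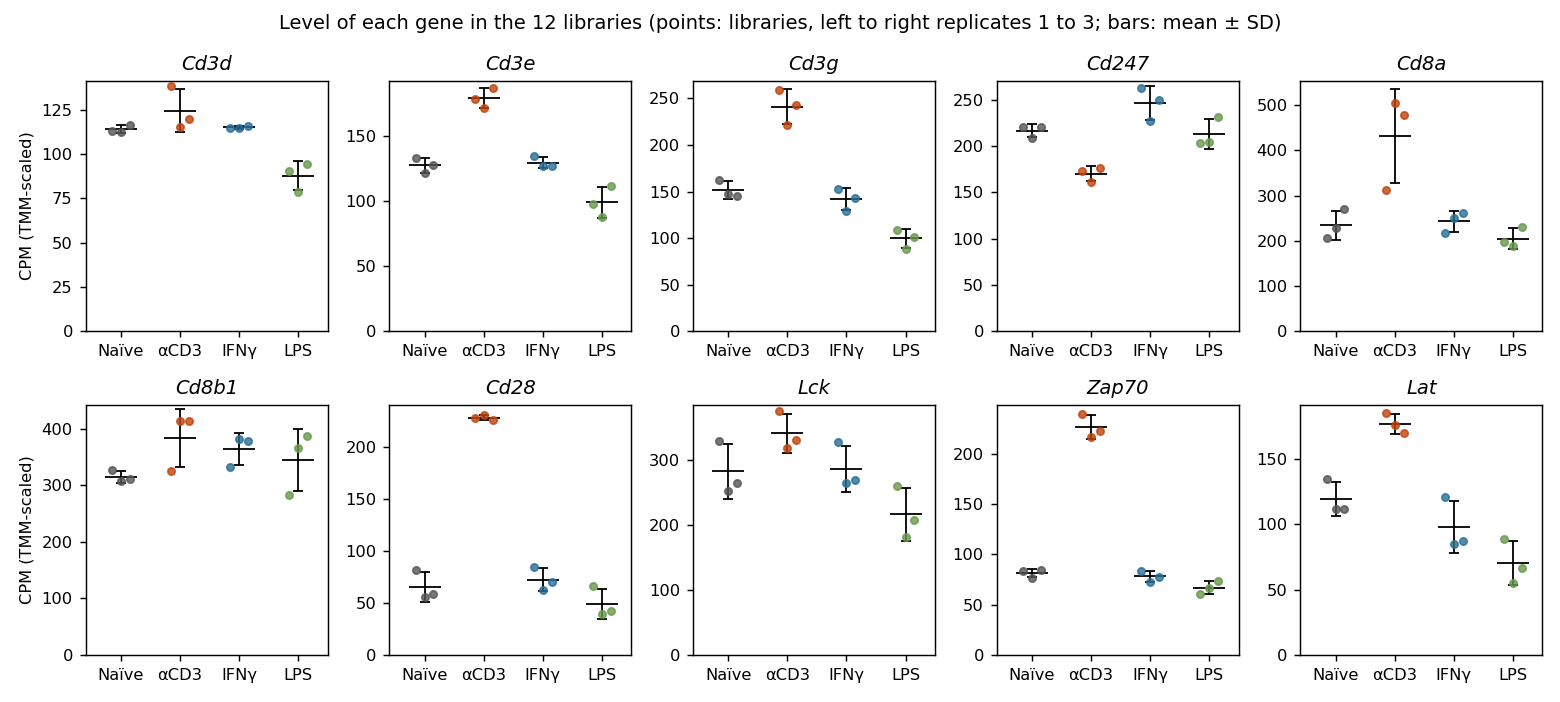
CPM of each of the 10 genes on the y axis of its panel, by group on the x axis, with 1 point a library (replicates 1 to 3 from left to right) and the mean ± SD in black. Cd28 and Zap70 separated the αCD3 libraries most clearly, at 225 to 230.4 and 217 to 240.0 CPM, and Cd247 was lowest in αCD3 libraries, at 161 to 176 CPM.

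With IFNγ 0 of 10 members were called in either direction against Naïve cells, and all fold changes were within 0.29 log2 units on TMM-scaled library sizes. Over all tested genes 8.17% were called higher and 4.27% lower, so 0 of 10 is close to the background. With library size alone 715 genes were called higher and 1564 lower, against 990 and 518. The median log2 fold change was 0.02 over the members and -0.02 over all genes. At an unadjusted p under 0.05 in the same edgeR fit, 1 member passed, which was Cd247. DESeq2 and limma-voom also called 0 members.

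The values with IFNγ were close to the Naïve ones for most members. Cd3d was at 115, 115 and 116 CPM with IFNγ, within the Naïve range of 113 to 117 CPM, and its log2 fold change was 0.01 ± 0.08. Cd3e (130 ± 4.60 CPM, log2 fold change 0.02 ± 0.08), Cd3g (142 ± 11.8 CPM, -0.10 ± 0.10), Cd8a (243 ± 23.0 CPM, 0.05 ± 0.17), Cd28 (72.2 ± 11.2 CPM, 0.15 ± 0.20), Lck (286 ± 35.1 CPM, 0.02 ± 0.15) and Zap70 (78.1 ± 5.14 CPM, -0.06 ± 0.08) all overlapped Naïve libraries. Cd247 was at 263, 227 and 249.96 CPM with IFNγ, each above the highest Naïve library at 221 CPM, but its log2 fold change of 0.19 ± 0.08 was not called (adjusted p = 0.148). Cd8b1 was at 332, 383 and 379 CPM, also above all Naïve libraries and not called (0.21 ± 0.12, adjusted p = 0.334). Lat was at 121, 85.1 and 87.4 CPM, where library 1 lay within the Naïve range and the others below it (-0.29 ± 0.17, adjusted p = 0.339). With the replicate block 2 members were called, Cd247 higher (0.18 ± 0.05, adjusted p = 0.0261) and Lat lower (-0.30 ± 0.10, adjusted p = 0.0471), where 24.9% of all genes were called. Without the libraries numbered 1, Cd8b1 (0.28, adjusted p = 0.00328) and Lat (-0.39, adjusted p = 0.00778) were called. The summed T cell markers were at 1183 to 1527 CPM with IFNγ against 1370 to 1694 CPM in Naïve libraries, with 0 of 5 called, and 2 of 10 B cell and 2 of 6 dendritic cell markers were lower. The NK cell genes were at 139 to 236 CPM with IFNγ against 122 to 130.1 CPM, with 1 of 6 called higher, and the part of these cells was not tested. Scaled to the T cell markers 0 members were called, but the values of all members moved. Cd8b1 (0.42 ± 0.23), Cd247 (0.38 ± 0.14), Cd28 (0.35 ± 0.14), Cd8a (0.26), Cd3e (0.22), Lck (0.22) and Cd3d (0.21) had larger values than before. Cd3g (0.10) and Zap70 (0.13) turned positive, and Lat (-0.10) was smaller in size.

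LPS was accompanied by lower levels of 6 of the 10 members against Naïve cells, and 0 were called higher. Over all tested genes 22.3% were called lower and 26.9% higher. With library size alone 2140 genes were called higher and 4380 lower, against 3265 and 2709. The median log2 fold change was -0.37 over the members and -0.01 over all genes. With the replicate block 7 members were called, all lower, where 59.5% of all genes were called.

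Lat had the largest difference with LPS, at 88.8, 55.3 and 66.9 CPM against 135, 112 and 112 CPM in Naïve libraries. No LPS library reached the Naïve range, and the log2 fold change was -0.77 ± 0.17 (adjusted p = 0.00435). Cd3g was at 109, 88.6 and 102 CPM with LPS, below the Naïve range of 145 to 163 CPM (-0.60 ± 0.10, adjusted p = 0.000487). Cd3d, which was not called with αCD3, was at 90.6, 78.6 and 94.2 CPM (-0.38 ± 0.08, adjusted p = 0.00319). Cd3e was at 98.2, 87.6 and 111 CPM (-0.37 ± 0.08, adjusted p = 0.00427). Cd3d, Cd3e and Cd3g were below the Naïve libraries in every LPS library, and the share of all genes separated in this way was not counted. Zap70 was at 60.9, 66.6 and 73.4 CPM, again below all Naïve libraries (-0.28 ± 0.08, adjusted p = 0.0142), but it was not called without Naïve library 3.

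Lck was at 259.6, 181 and 207 CPM with LPS and 329, 252 and 264 CPM in Naïve cells. LPS library 1 lay within the Naïve range, and the call was near the threshold (-0.39 ± 0.15, adjusted p = 0.0491). It was lost without Naïve library 1 or 3, without LPS library 2 or 3, and in a fit of only the 2 groups. Cd28 was at 65.7, 39.2 and 42.2 CPM with LPS and was not called (-0.42 ± 0.20, adjusted p = 0.113), but it was called lower with the replicate block (-0.42 ± 0.13, adjusted p = 0.0191), without LPS library 1 (-0.68, adjusted p = 0.00806) and without all libraries numbered 1 (-0.48, adjusted p = 0.000601). Cd8a at 205 ± 22.7 CPM (-0.19 ± 0.17, adjusted p = 0.372), Cd8b1 at 345 ± 54.4 CPM (0.13 ± 0.12, adjusted p = 0.404) and Cd247 at 213 ± 16.0 CPM (-0.025 ± 0.08, adjusted p = 0.808) were not called. Without the libraries numbered 1 Cd8b1 was called higher (0.28, adjusted p = 0.000989). With library size alone Cd247 was called lower (-0.24, adjusted p = 0.0346), as was Cd28.

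T cell markers outside the complex moved with these values. With LPS the 5 T cell markers were called lower in 5 of 5 cases, and their sum was 1249, 963 and 1073 CPM against 1694, 1370 and 1455 CPM in Naïve libraries. Tcf7 alone was at 693 ± 115 CPM with LPS and 935 ± 127 CPM in Naïve libraries, so it made up most of both sums. B cell markers were lower in 5 of 10 cases and higher in 1, myeloid genes lower in 6 of 12 and higher in 1, and NK cell genes lower in 1 of 6. CD4 T cell markers were lower in 3 of 4 cases, platelet genes lower in 2 of 4, and dendritic cell genes lower in 1 of 6 and higher in 1. When counts were scaled to the T cell markers, 3 members were called in place of 6, namely Lat lower (-0.32 ± 0.11, adjusted p = 0.0351) and Cd247 (0.44 ± 0.14, adjusted p = 0.0177) and Cd8b1 (0.62 ± 0.23, adjusted p = 0.0398) higher. Calls over all genes were not counted on that scale, so whether the loss is particular to the members is not known. On that scale Cd3d, Cd3e, Cd3g, Lck and Zap70 were not called, with log2 fold changes from -0.14 to 0.19. The part of cell number in the values with LPS was not tested.

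**Figure D4:**
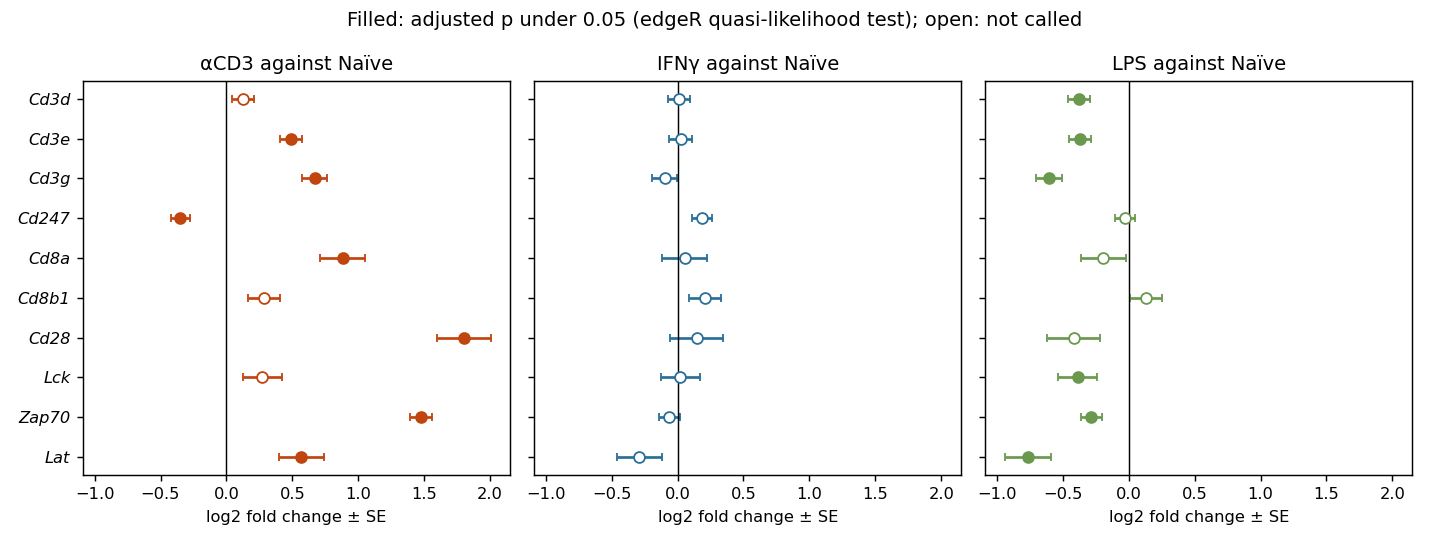
Log2 fold change ± SE (x axis) of the 10 genes (y axis) against Naïve for αCD3, IFNγ and LPS, where filled points were called at an adjusted p under 0.05 and open points were not. With αCD3 6 genes were filled above 0 and Cd247 below 0, with IFNγ 0 were filled, and with LPS 6 were filled, all below 0.

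Direct comparisons of the treatments use the same libraries again and so are not independent of those with Naïve cells. Between αCD3 and LPS, 9 of 10 members were called, 8 higher with αCD3 and Cd247 lower, beside 9.64% of all genes higher and 9.76% lower. The largest of these differences were in Cd28 (2.22 ± 0.21, adjusted p = 6.82e-05), Zap70 (1.76 ± 0.08, adjusted p = 1.75e-06), Lat (1.33 ± 0.18, adjusted p = 0.000555) and Cd3g (1.27 ± 0.10, adjusted p = 1.56e-05). Cd8a (1.08 ± 0.17), Cd3e (0.85 ± 0.08), Lck (0.66 ± 0.15) and Cd3d (0.51 ± 0.08) were also higher with αCD3, and Cd8b1 was not called (0.15 ± 0.12, adjusted p = 0.431). Scaled to the T cell markers, Cd3d (-0.02), Cd8a (0.57) and Lck (0.15) were no longer called. On that scale Cd3e (0.33, adjusted p = 0.0499), Cd3g (0.75), Lat (0.83) and Cd247 (-0.86) were called with values over 1.5 times apart from those above. Cd247 differed by -0.32 ± 0.08 (adjusted p = 0.0132) and lost its call with library size alone, in a fit of only the 2 groups and without LPS library 3. The median over the members was 0.97 and that over all genes -0.01, and 9 members were called with the replicate block, beside 34.7% of genes. With library size alone 1691 genes were higher and 766 lower, against 1168 and 1183.

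Between IFNγ and αCD3, 7 members were called. Cd247 was higher with IFNγ (0.53 ± 0.08, adjusted p = 0.000293), where 15.8% of all genes were called higher, and 6 were lower, where 21.4% of all genes were. The lower ones were Cd28 (-1.66 ± 0.20), Zap70 (-1.54 ± 0.08), Lat (-0.86 ± 0.17), Cd8a (-0.83 ± 0.17), Cd3g (-0.77 ± 0.10) and Cd3e (-0.47 ± 0.08), with adjusted p from 2.37e-06 to 0.0033. Lck was called lower only with the replicate block (-0.26 ± 0.05, adjusted p = 0.00252) and without the libraries numbered 1, where Cd8b1 was called lower too (-0.14, adjusted p = 0.0369). The block gave 8 calls, beside 49.7% of genes. On the scale of T cell markers Cd3e (-0.21) and Cd8a (-0.58) were not called, and Cd3g was called at -0.51.

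Between IFNγ and LPS, 6 members were called, all higher with IFNγ, beside 18% of all genes higher and 22.4% lower. With library size alone 2586 genes were higher and 2330 lower, against 2182 and 2713. Cd3g (0.51 ± 0.10, adjusted p = 0.0017), Cd3d (0.39 ± 0.08, adjusted p = 0.00314) and Cd3e (0.39 ± 0.08, adjusted p = 0.00363) did not overlap between the groups. Lck (0.41 ± 0.15, adjusted p = 0.0476), Cd28 (0.56 ± 0.20, adjusted p = 0.0484) and Cd247 (0.21 ± 0.08, adjusted p = 0.0451) were near the threshold. Lck, Cd28 and Cd247 lost the call in a fit of the 2 groups alone and with no low-count filter. All 3 lost it without IFNγ library 1 or 3 or LPS library 2, Lck also without IFNγ library 2, Lck and Cd28 without LPS library 3, and Cd247 without LPS library 1 and without all libraries numbered 1 (0.11, adjusted p = 0.302). Zap70 (0.22 ± 0.08, adjusted p = 0.0516) and Lat (0.48 ± 0.18, adjusted p just above 0.05) narrowly missed. Both were called with library size alone, with DESeq2 size factors, by DESeq2, with the replicate block and without IFNγ library 2. Zap70 was also called without LPS library 3, and Lat by limma-voom, without LPS library 1 and without the libraries numbered 1. The block gave 8 calls beside 52.7% of genes. Scaled to the T cell markers, 0 of the 10 were called, with Cd247 at -0.06. The test for any difference among the 4 groups called 9 members, all but Cd8b1 (adjusted p = 0.237), beside 59.9% of all genes.

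Ratios of 2 members within a library do not depend on how the library was scaled. They are ratios of counts, not of molecules, and are compared between groups only. Cd247 over Cd3e was 1.65, 1.71 and 1.73 in Naïve libraries and 0.973, 0.940 and 0.939 in αCD3 libraries. It was 1.79 to 1.96 with IFNγ and 2.07 to 2.34 with LPS, so the 4 groups did not overlap. Cd3g over Cd3d, the pair with starts 1355 bp apart, was 1.25 to 1.44 in Naïve and 1.87 to 2.02 in αCD3 libraries, and 1.08 to 1.20 with LPS. Cd8a over Cd8b1, the 2 chains of the co-receptor, was 0.631 to 0.865 in Naïve and 0.963 to 1.22 in αCD3 libraries. With IFNγ (0.654 to 0.692) and LPS (0.514 to 0.692) this ratio overlapped the Naïve range. Zap70 over Lck was 0.252 to 0.320 in Naïve and 0.641 to 0.684 in αCD3 libraries. Cd28 over Cd3e was 0.455 to 0.612 in Naïve and 1.20 to 1.34 in αCD3 libraries. Lat over Lck was 0.408 to 0.443 in Naïve and 0.495 to 0.555 in αCD3 libraries, and it was lower in all libraries with IFNγ (0.323 to 0.370) and LPS (0.306 to 0.342). The ratios are descriptions with no test.

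**Figure D5:**
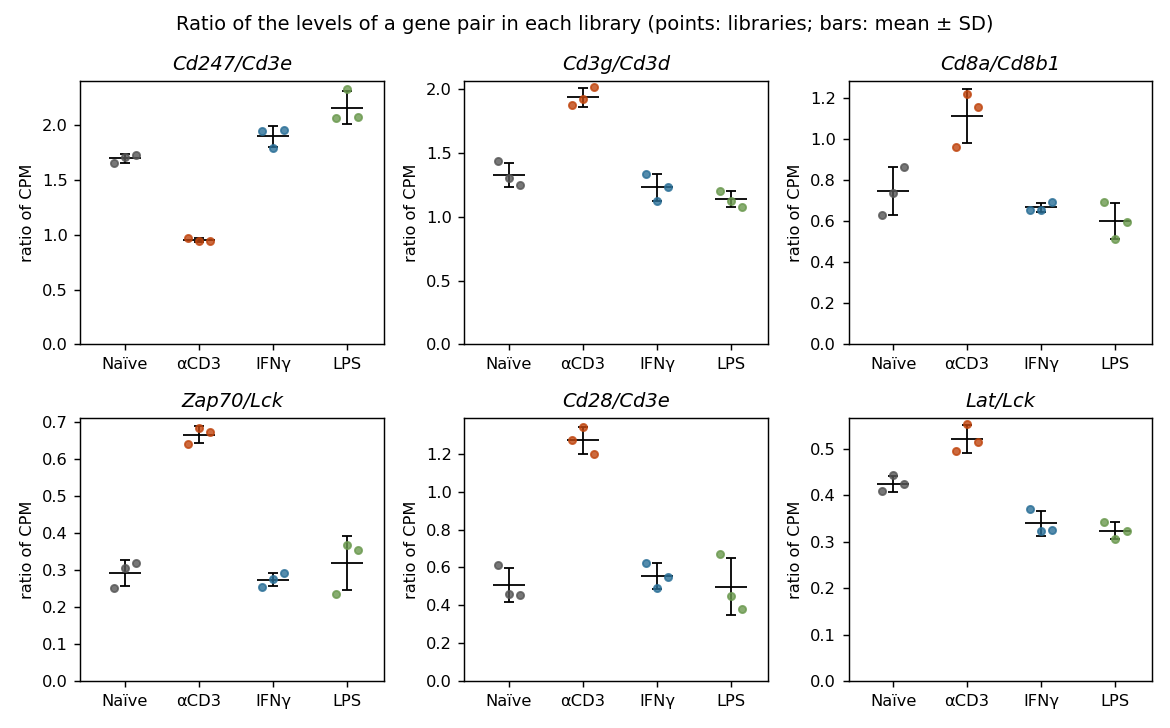
Ratio of the CPM of 2 genes (y axis of each panel) in each library, by group on the x axis, with 1 point a library and the mean ± SD in black. Cd247 over Cd3e was 0.939 to 0.973 in αCD3 and 1.65 to 1.73 in Naïve libraries, and Zap70 over Lck was 0.641 to 0.684 in αCD3 libraries against 0.252 to 0.320.

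Other genes of the pathway were counted from lists of 82 genes, of which 76 were tested. The TCR chain genes Trac, Trbc1, Trbc2 and Trdc were listed but are not in the count table, so the receptor chains themselves could not be followed. With αCD3, 20 of the 76 were called higher and 23 lower, with a median log2 fold change of -0.05. Over all tested genes 22.9% were higher and 15.7% lower. With the replicate block 22 of the 76 were higher and 31 lower. Among 11 surface partners, which include the T cell markers Cd2, Cd5 and Thy1, 6 were higher and 1 lower. They included Cd5, which dampens TCR signals (1.55 ± 0.20, adjusted p = 0.000208), and the costimulatory receptor Cd27 (1.45 ± 0.23, adjusted p = 0.000695). Of 19 kinases, phosphatases and ligases 7 were higher and 5 lower, such as the ubiquitin ligase gene Cblb (1.05 ± 0.09, adjusted p = 1.23e-05) and the Lck relative Fyn (0.87 ± 0.09, adjusted p = 5.22e-05) on one side and the Tec family kinase gene Txk (-0.75 ± 0.13, adjusted p = 0.00114) on the other. Among 21 adaptors 3 were higher and 10 lower. Lcp2, which encodes SLP-76, the partner of LAT, was higher (0.77 ± 0.11, adjusted p = 0.000281), as was Sla (1.49 ± 0.11, adjusted p = 7.35e-06), whereas its relative Sla2 (-1.18 ± 0.09, adjusted p = 9.45e-06) and Fyb (-1.13 ± 0.09, adjusted p = 8.64e-06) were lower. Of 25 downstream effectors 4 were higher and 7 lower, with Nfatc1 (0.94 ± 0.29, adjusted p = 0.0252) and Malt1 (0.59 ± 0.17, adjusted p = 0.0172) higher and the calcium sensor gene Stim1 (-0.81 ± 0.15, adjusted p = 0.00216) and Dgka (-0.82 ± 0.26, adjusted p = 0.0311) lower.

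With IFNγ 8 of the 76 were higher and 6 lower, beside 8.17% and 4.27% of all tested genes. With the replicate block 12 were higher and 19 lower, beside 24.9% of all genes called in either direction, so the balance between the directions turned. Cblb (0.71 ± 0.09, adjusted p = 0.000634), Sla (0.97 ± 0.11, adjusted p = 0.000425) and Lax1 (0.94 ± 0.12, adjusted p = 0.000759) were higher. Pag1, which holds the LCK inhibitor CSK at the membrane, was lower (-0.65 ± 0.09, adjusted p = 0.00132), as was Rasgrp1 (-0.69 ± 0.16, adjusted p = 0.0163), which activates Ras downstream of LAT. With LPS 6 of the 76 were higher and 46 lower, beside 26.9% and 22.3% of all tested genes, with a median of -0.34, and with the block 6 were higher and 50 lower. All 11 surface partners were lower, among them Trat1 (-1.27 ± 0.36, adjusted p = 0.013) and Cd5 (-1.02 ± 0.21, adjusted p = 0.00228). The adaptor gene Lax1 was lower (-1.27 ± 0.12, adjusted p = 1.46e-05), opposite to its direction with IFNγ, as were Pag1 (-0.85 ± 0.09, adjusted p = 3.43e-05) and Rasgrp1 (-0.96 ± 0.16, adjusted p = 0.000626). Grap (0.92 ± 0.12, adjusted p = 0.000111) and Ptpn2 (0.70 ± 0.13, adjusted p = 0.0011) were higher. Some of these genes are also used by B cells, whose markers were lower with LPS as given above.

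The genes with the pattern most like a member were found by Pearson correlation of log2 CPM over the 12 libraries, which share the 4 groups, so the values describe the pattern only. Zap70 was closest to Rgs16 (r = 0.988), Arf3 (0.983) and Crtam (0.981). Cd28 was closest to Cd6 (0.990), Cd27 (0.986) and Rgs16 (0.973). Cd3g was closest to Hdac7 (0.991), Cd5 (0.984) and Rgs3 (0.982), and Hdac7 also led for Cd3e (0.967) and came second for Lat (0.979) after Cbarp (0.979). Cd8a was closest to Rab27a (0.970), Lck to B4galnt1 (0.978), Cd3d to Tmem181a (0.962) and Cd247 to Mtmr14 (0.963). Among the members, Cd3e and Cd3g had r = 0.972 and Cd3g and Lat 0.964. Cd247 was negatively related to all other members, from -0.184 with Cd3d to -0.776 with Zap70. Cd8a and Cd8b1 had r = 0.607.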

How the data were processed

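Splenic CD8 T cells in 4 groups of 3 libraries were profiled by mRNA sequencing. The authors mapped the reads with Kallisto to mouse build mm10 and deposited expected counts per gene symbol and library, unscaled. The Kallisto version and transcript set are not given in the sources used here. The submitters' notes also name DESeq2 1.24.0. Kallisto divides ambiguous reads, so 8757 to 9980 genes per library had fractional counts. Of 20778 symbols, 20612 matched GENCODE M21.

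Counts were rounded and tested with edgeR 4.0.16 (limma 3.58.1, DESeq2 1.42.0, R 4.3.3): TMM, filterByExpr, robust quasi-likelihood F-test, all 12 libraries, group as the only term, Benjamini-Hochberg over 12122 genes. Code was tested on simulated data. Correlations used log2 CPM with a prior count of 2. All 10 members were named. Of the pathway lists, up to 2 called genes with the largest changes in each direction per list were eligible, and some of them are not reported here, and for likeness up to the first 3 genes. Members, lists and tests were chosen with earlier results of these data known. Replicate numbers paired the libraries by their deviations from group means: all 18 same-number pairs correlated at 0.117 to 0.401, other pairs at -0.354 to 0.102. The labels do not say what a number shares.

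Alternatives were 2 other scalings, DESeq2, limma-voom, no low-count filter, a replicate block, only the groups compared, each library left out and, added after seeing the data, scaling to T cell markers and leaving out all libraries numbered 1.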

Additional observations from a re-analysis of the deposited data

How the results depend on the processing

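Of 900 refits of member fold changes, 50 lost a call and 34 gained one. The sign, at 2 decimals, changed in 33, of which 17 came with scaling to T cell markers and 16, none with a call in either fit, with other settings. In 7 of the 17 the gene was called on at least 1 of the scales. That scaling makes the summed level of these markers equal in all libraries, and Tcf7 makes up most of that sum. Among these 7, Cd3d (0.08), Cd3e (0.10), Cd247 (0.44), Lck (0.07) and Zap70 (0.19) turned positive in LPS against Naïve, Cd247 turned to -0.06 in IFNγ against LPS and Cd3d to -0.02 in αCD3 against LPS. Under the scaling to T cell markers 3 members were called in LPS against Naïve and 0 in IFNγ against LPS, and calls over all genes were not counted.

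The replicate block called 2 members in IFNγ against Naïve, where the group-only fit called 0, added the calls named beside the results and changed no other call of a member. Leaving out single libraries gave 0 calls in IFNγ against Naïve, and 2 without all libraries numbered 1. In IFNγ against LPS it gave 3 to 7 calls against 6 (3 without IFNγ library 1 or 3 or LPS library 2), and no count filter or only the 2 groups gave 3 each. The cause was not tested. By the longest transcript 20 of 40 ranks by level per length were kept.

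Library size alone shifted the median log2 fold change of all genes by -0.11 with αCD3, -0.14 with IFNγ and -0.21 with LPS, each against Naïve. Genes called in IFNγ against Naïve were 1508, and 2279 with library size alone, 3020 with the block, 2837 without libraries numbered 1 and 787 to 1533 without single libraries (lowest without IFNγ library 2). In αCD3 against LPS they were 2351, and 4202 with the block, 1440 with only the 2 groups, 3582 without libraries numbered 1 and 1429 to 2590 without single libraries (lowest without LPS library 2).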
